A study of Mus musculus with 18 samples.

Results

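Pdcd10, also called Ccm3, encodes an adaptor protein whose loss in endothelial cells gives cerebral cavernous malformations, clusters of dilated and leaky capillaries and veins in the brain. The data described here are RNA-seq counts from brain endothelial cells of mice that were kept in room air (21% oxygen) and had or lacked endothelial Pdcd10. The comparison used the 9 room-air libraries of the 18 in the series, 4 from controls (called flox) and 5 from knockouts (called KO). The other 9 libraries came from the same 2 genotypes after 7 days at 12% oxygen and entered the statistical model and 1 contrast below. All 9 room-air libraries carried floxed alleles of Pdcd10 (Pdcd10fl/fl) and the astrocyte translating-ribosome reporter Aldh1l1-EGFP/Rpl10a. The KO mice also carried Slco1c1-iCreERT2, a tamoxifen-activated Cre driven by the promoter of a thyroid hormone transporter of brain endothelium. That promoter is also known to be active in the epithelium of the choroid plexus. Mice received 50 µg of 4-hydroxy-tamoxifen into the stomach on postnatal day 1, and brains were taken on day 57. The controls were littermates without Cre. The study also names uninjected Cre carriers as controls without saying which libraries, if any, they gave. Whether a library came from 1 mouse or from several was not stated, so the p-values measure the spread between these libraries, which may be partly technical.

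Brain endothelial cells line all vessels of the brain and form the blood-brain barrier, with sealed junctions, little transcytosis and many nutrient and efflux transporters. Their identity shifts along the vessel, from arterial cells wrapped in smooth muscle through capillaries covered by pericytes to veins, and is kept by Notch, Wnt, BMP, VEGF and angiopoietin signals. PDCD10 binds CCM2, which joins it to KRIT1 and the receptor HEG1, and it also binds the STK24, STK25 and STK26 kinases. The complex holds back the kinase MAP3K3 (MEKK3), whose activity raises the transcription factors KLF2 and KLF4.

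Levels are given as CPM, read counts scaled to a common library size with factors from the trimmed mean of M-values (TMM), as mean ± SD over 4 flox and 5 KO libraries. Where single libraries are listed, the order is flox 1, 2, 3 and 4, then KO 1, 2, 4, 5 and 6. CPM is not corrected for transcript length, so it compares libraries and not genes. Changes are KO minus flox on the log2 scale ± SE, from edgeR's quasi-likelihood test, with p-values adjusted by Benjamini-Hochberg over all 17531 genes tested. Gene lists are counted over the members that passed the filter on low counts, and where some did not, the number listed is added. A gene is said to rise or fall where the adjusted p was under 0.05. Over all genes tested 9.54% rose and 7.03% fell, and the counts of each list are to be read beside these shares. Flox and KO libraries with the same number deviated from their group means together, as some with different numbers also did, and a second fit took that number within each oxygen level as a block, which rests the room-air difference on the pairs 1, 2 and 4. Where a gene's call was lost with the block, its adjusted p there follows as "with the block". For a gene list, counts are added where the block or leaving out libraries moved the rises or the falls by at least 2 genes and over 1.5 times.

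The libraries held 19701159 to 31193333 counts. Endothelial transcripts were high in all 9, with Pecam1 between 1032 and 1764 CPM, Cldn5 between 1313 and 2407 CPM and Cdh5 between 821 and 1233 CPM. Pairs of libraries within a group differed by far more than counting noise, with a mean chi-square per gene of at least 6.34. KO 1, KO 2 and KO 5 were much closer to each other (6.34, 11.8 and 17.8) than the other pairs within a group (43.8 to 227). The labels do not say why, and the p-values treat all 9 libraries as independent, so they may understate the spread between mice. Flox 4 and KO 4 stood apart: the neuronal gene Syt1 was at 838 and 471 CPM there and at most 0.825 CPM in the other 7 libraries. They are called the neuron-marker libraries below, and a result that is lost without them is given with its value. The same pair had 5.6 and 5.38% of counts from mitochondrial genes, against 2.36 to 4.07% in the others. The immediate early gene Fos was at 4749 to 5734 CPM in flox 1, KO 1, KO 2 and KO 5 and at 292 to 1326 CPM in the other 5. Xist and the Y-linked gene Ddx3y were both well above 0 in flox 3, flox 4 and KO 4, whereas Ddx3y alone was so in flox 1, KO 1 and KO 2, and Xist alone in flox 2, KO 5 and KO 6. Fits that added the mean level of the immediate early genes, the mean level of neuron markers or the Xist and Y signal as a covariate kept 96.4%, 99.4% and 95.7% of the calls below.

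Pdcd10 itself stood at 41.2, 45, 40.3 and 30.6 CPM in the flox libraries and 20.0, 19.9, 16.3, 20.1 and 16.8 CPM in the KO libraries. Every KO library lay below every flox library, and the mean fell from 39.3 ± 6.14 to 18.6 ± 1.9 CPM (log2 fold change -1.08 ± 0.14, adjusted p = 5.03e-05). Counts per gene do not separate the floxed exons from the rest of the transcript, so the source of the remaining signal was not tested. Of 23 genes for the complex and its partners 3 rose and 2 fell (21.7% called, against 16.6% of all genes tested). Among the direct partners, Ccm2 rose slightly (log2 fold change 0.21, adjusted p = 0.0384, 0.0689 with the block, 0.115 without both neuron-marker libraries). Stk24 was also called, and the calls of Ccm2 and Stk24 were each lost under 15 of the 23 alternative fits. Stk25 and Stk26 were not called. Heg1, the transmembrane receptor that anchors the complex, rose from 1201 ± 141 to 1706 ± 203 CPM (log2 fold change 0.51 ± 0.12, adjusted p = 0.00683). Krit1 was at 65.3 ± 7.23 CPM in flox and 55.6 ± 12.8 CPM in KO (adjusted p = 0.324). Map3k3 was at 162 ± 25.1 CPM in flox and 158 ± 7.42 CPM in KO (adjusted p = 0.855).

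Loss of Pdcd10 was followed by many moderate changes. Of the 17531 genes tested, 2905 (16.6%) changed, 1673 of them upward (9.54% of genes tested) and 1232 downward (7.03%). The median log2 fold change over all genes was -0.02. At least 2-fold changes numbered 673 upward and 474 downward, at least 4-fold changes 287 and 93, and at least 8-fold changes 78 and 10. Large changes were thus more often rises. For calls of any size the balance of directions turned under 4 alternatives. Without both neuron-marker libraries 1811 genes were higher and 1965 lower, without KO 4 alone 1763 and 1882, without the 3 libraries with both Xist and Ddx3y 1348 and 1431, and with limma on RPKM 1193 and 1304. Counts of calls grew with abundance, from 9.39% of genes below a mean of 0 on the log2 CPM scale to 31.8% of those above 8. For 2573 genes (14.7%) the flox and KO libraries did not overlap, 1506 with KO above and 1067 with KO below. Genes that rose held 12.4% of CPM in flox and 19.9% in KO, and genes that fell held 12.5% and 7.90%. With the replicate block, 1574 genes were called, 972 higher and 602 lower, and 1404 calls were in both fits.

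**Figure D1:**
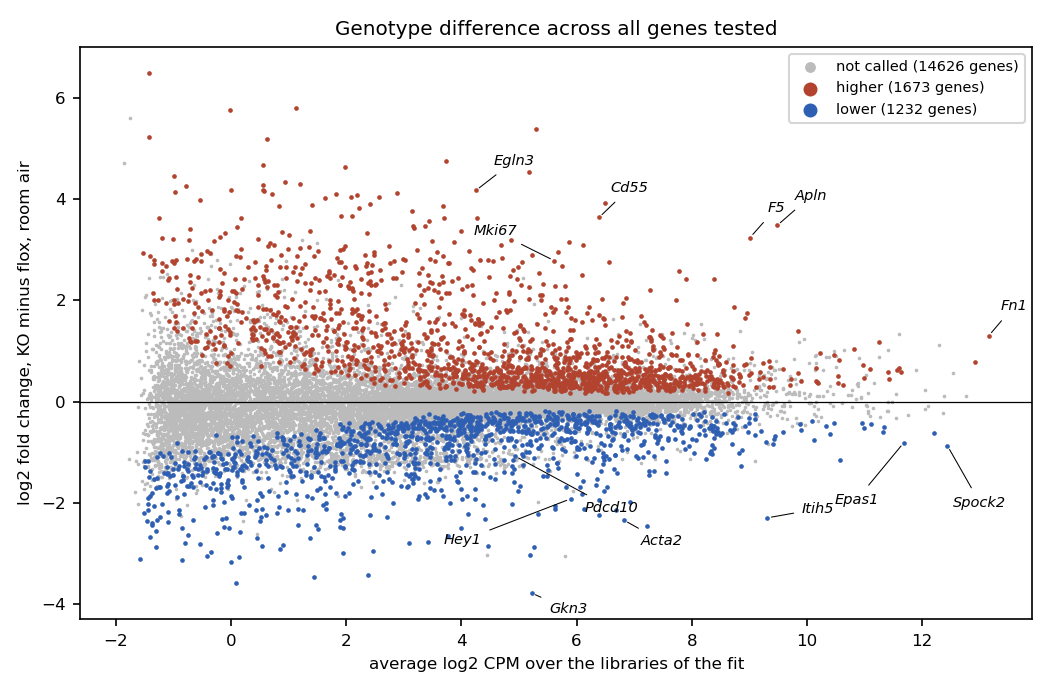
Log2 fold change (KO minus flox in room air) of each of the 17531 genes tested against its mean log2 CPM, with genes that rose and genes that fell in colour and a few genes labelled. At least 4-fold changes are mostly rises (287 against 93); 1673 genes rose and 1232 fell, a balance that turns without both neuron-marker libraries (1811 and 1965).

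Gene families with shared symbols showed where rises and falls collected. Among serpins, secreted protease inhibitors, 11 of 25 tested (63 listed) rose and 1 fell (median log2 fold change 0.58). Some serpins are near copies among which reads may have been split. Of the annexins, calcium-dependent membrane-binding proteins, 7 of 10 tested (13 listed) rose and none fell, and of their frequent partners the S100 proteins 5 of 9 tested (14 listed) rose and none fell. Anxa2 rose from 206 ± 13.7 to 649 ± 67.4 CPM (log2 fold change 1.65 ± 0.11, adjusted p = 1.12e-07). Its binding partner S100a10, with which it forms a cell-surface receptor for plasminogen, stood at 23.2, 18.4, 20.0 and 27.8 CPM in the flox libraries and 98.7, 89.3, 80.2, 99.5 and 87.1 CPM in the KO libraries. The KO libraries were all higher, and the mean rose from 22.3 ± 4.15 to 91 ± 8.16 CPM (log2 fold change 2.03 ± 0.23, adjusted p = 1.59e-05). Zinc finger genes with a Zfp symbol, mostly transcriptional repressors, fell more often than they rose: 57 of 339 tested (374 listed) fell and 13 rose, with a median of -0.20, and 11 of the falls and 4 of the rises were also called with the block. Of 40 tested (44 listed) collagen genes 5 rose and 6 fell. The list gave 4 rises and 3 falls with the block. Of 77 tested (78 listed) mitochondrial ribosomal protein genes 1 rose and none fell. Counts were 0 rises and 3 falls without both neuron-marker libraries. Cytosolic ribosomal protein genes gave 11 rises and 1 fall of 87 tested (89 listed), a share called of 13.8% against 16.6% of all genes tested. The list gave 4 rises and 0 falls with the block and 5 and 2 without both neuron-marker libraries.

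The largest absolute gains were in genes already highly expressed by endothelium. Fn1, which encodes the matrix protein fibronectin, stood at 4723, 4853, 5531 and 3968 CPM in the flox libraries and 10720, 11130, 11870, 11020 and 14050 CPM in the KO libraries. The lowest KO library was above the highest flox library, and the mean rose from 4769 ± 641 to 11760 ± 1349 CPM (log2 fold change 1.30 ± 0.13, adjusted p = 4.42e-06). Bsg, basigin, a membrane glycoprotein that escorts lactate transporters to the surface and is abundant at the barrier, was at 4826, 5263, 5952 and 4978 CPM in the flox libraries and 7961, 7964, 11610, 7573 and 10070 CPM in the KO libraries. Again the groups did not overlap (log2 fold change 0.78 ± 0.14, adjusted p = 0.000797). Podxl, a sialomucin of the luminal surface, rose from 2595 ± 323 to 3909 ± 368 CPM (log2 fold change 0.59 ± 0.12, adjusted p = 0.00314). Vwf, the von Willebrand factor that tethers platelets, rose from 1547 ± 357 to 3505 ± 1145 CPM (log2 fold change 1.18 ± 0.24, adjusted p = 0.00302, 0.0509 with the block). Ahnak, a very large scaffold protein under the membrane, rose from 2243 ± 264 to 3548 ± 747 CPM (log2 fold change 0.66 ± 0.16, adjusted p = 0.00968, 0.077 with the block).

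The largest absolute losses were also in genes typical of brain endothelium. Spock2, a secreted proteoglycan, stood at 7117, 8548, 9370 and 6022 CPM in the flox libraries and 3929, 4648, 5128, 3433 and 4077 CPM in the KO libraries. The groups did not overlap, and the mean fell from 7764 ± 1488 to 4243 ± 658 CPM (log2 fold change -0.87 ± 0.17, adjusted p = 0.00195, 0.106 with the block). Flt1, the VEGF receptor 1 that also acts as a VEGF sink, fell from 5736 ± 1245 to 3734 ± 503 CPM (log2 fold change -0.62 ± 0.13, adjusted p = 0.00414). Itm2a, a membrane protein enriched in brain endothelium, fell from 2242 ± 492 to 1015 ± 128 CPM (log2 fold change -1.14 ± 0.23, adjusted p = 0.00222, 0.124 with the block). Itih5, a hyaluronan-binding matrix protein, fell from 1041 ± 221 to 212 ± 34.6 CPM (log2 fold change -2.29 ± 0.24, adjusted p = 7.36e-06). Glul, glutamine synthetase, fell from 2000 ± 168 to 1290 ± 95.7 CPM (log2 fold change -0.63 ± 0.12, adjusted p = 0.00203). Slco1c1, whose promoter drives the Cre, fell from 3066 ± 367 to 2034 ± 355 CPM (log2 fold change -0.59 ± 0.15, adjusted p = 0.0117, 0.164 with the block); by the genotypes in the labels the KO libraries carry the transgene built on this promoter and the flox libraries do not, though the study's mention of uninjected Cre carriers leaves this uncertain.

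Genes with the smallest p-values included several with no usual place among endothelial markers. Zap70, a tyrosine kinase best known from T-cell receptor signalling, stood at 20.1, 23.2, 24.1 and 23.3 CPM in the flox libraries and 79.1, 77.5, 93.7, 75.4 and 86.8 CPM in the KO libraries. The groups were far apart (log2 fold change 1.86 ± 0.09, adjusted p = 3.92e-09). The T-cell marker Cd3e was at or near 0 in all 9 libraries, but 5 of 22 tested lymphocyte markers rose, among them Cd2 (log2 fold change 2.43). The cell source of the Zap70 transcripts was not tested. Klhl4, a Kelch-like protein, was at 94, 88, 86.6 and 89.5 CPM in the flox libraries and 346, 365, 312, 343 and 442 CPM in the KO libraries (log2 fold change 2.01 ± 0.10, adjusted p = 7.16e-09). Dpp4, a surface peptidase that cleaves chemokines and incretins, rose from 62 ± 5.9 to 185 ± 21.1 CPM (log2 fold change 1.58 ± 0.09, adjusted p = 2.61e-08). Genes of the secretory path rose as well: Golm1 of the Golgi went from 86 ± 10.1 to 230.4 ± 18.1 CPM (log2 fold change 1.42 ± 0.09, adjusted p = 4e-08). Kdelr3, a receptor that returns proteins to the endoplasmic reticulum, went from 1.82 ± 0.303 to 9.87 ± 1.08 CPM (log2 fold change 2.43 ± 0.15, adjusted p = 4e-08). Klk11, a kallikrein-related protease, was close to 0 in flox, at 0, 0.0469, 0.0868 and 0.0408 CPM, and at 1.12, 1.17, 0.891, 0.595 and 1.11 CPM in KO (log2 fold change 4.26 ± 0.48, adjusted p = 6.95e-06).

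On the falling side, Mertk, a receptor that binds the bridging ligand GAS6 and helps clear dying cells, stood at 156, 152, 133 and 98.7 CPM in the flox libraries and 56.4, 47.7, 39.4, 47.6 and 44.6 CPM in the KO libraries. No KO library reached the flox range (log2 fold change -1.52 ± 0.12, adjusted p = 5.7e-07). Scube2, a secreted carrier of Hedgehog ligands, fell from 14.2 ± 4.14 to 2.05 ± 0.483 CPM (log2 fold change -2.80 ± 0.24, adjusted p = 9.05e-07). Wnt5a, a ligand of non-canonical Wnt signalling, fell from 67.5 ± 15.8 to 14.4 ± 1.34 CPM (log2 fold change -2.22 ± 0.19, adjusted p = 1.14e-06). Stxbp6, a regulator of vesicle fusion, fell from 43.9 ± 3.2 to 18.3 ± 1.64 CPM (log2 fold change -1.26 ± 0.09, adjusted p = 1.49e-07). Plcb1, a phospholipase C downstream of G proteins, fell from 166 ± 5.27 to 86.1 ± 6.94 CPM (log2 fold change -0.95 ± 0.08, adjusted p = 1.46e-06). Plscr1, a phospholipid scramblase, fell from 38.4 ± 9.21 to 10.1 ± 1.24 CPM (log2 fold change -1.93 ± 0.17, adjusted p = 1.14e-06).

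Most arterial genes fell in KO. Of 28 arterial genes 16 fell and 1 rose, the median was -0.97, and 10 of the falls were also called with the block. The transcription factor Hey1, a Notch target that sets arterial fate, stood at 131, 126, 104 and 75.9 CPM in the flox libraries and 35.4, 32.1, 27.9, 24.9 and 24 CPM in the KO libraries. Every KO library was below every flox library (log2 fold change -1.92 ± 0.22, adjusted p = 1.26e-05). Gja5, the gap junction protein connexin 40 of arterial endothelium, was at 43.5, 48.2, 41.3 and 23.3 CPM in the flox libraries and 8.87, 6.1, 10.4, 6.59 and 10.2 CPM in the KO libraries (log2 fold change -2.21 ± 0.28, adjusted p = 4.45e-05). Sema3g, a secreted semaphorin of arteries, fell from 908 ± 123 to 379 ± 61 CPM (log2 fold change -1.26 ± 0.21, adjusted p = 0.000463). The ligand Efnb2, ephrin B2, fell from 151 ± 55.8 to 44.2 ± 9.38 CPM (log2 fold change -1.77 ± 0.26, adjusted p = 0.000169). The arterial kinase Bmx fell from 116 ± 23.6 to 35.8 ± 4.63 CPM (log2 fold change -1.69 ± 0.20, adjusted p = 1.86e-05). Edn3, endothelin 3, fell from 174 ± 30.3 to 65.7 ± 6.29 CPM (log2 fold change -1.4 ± 0.27, adjusted p = 0.0018, 0.091 with the block). Unc5b, a netrin receptor of arteries and sprouts, fell from 212 ± 31.6 to 101 ± 15.8 CPM (log2 fold change -1.08 ± 0.15, adjusted p = 0.000119). The single rise was Fn1.

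Smooth muscle transcripts, typical of cells around arteries, fell beside the arterial genes, and their cell source was not tested. Their summed level over 17 markers was 1090 to 1810 CPM in flox and 707 to 773 CPM in KO, 10 fell and 2 rose, and none of the markers that define the list was at 0 in all libraries. Acta2, smooth muscle actin, stood at 279.9, 272, 211 and 152 CPM in the flox libraries and 42, 36, 48.8, 46.9 and 52.2 CPM in the KO libraries. The groups did not overlap (log2 fold change -2.34 ± 0.23, adjusted p = 3.03e-06). Myh11, the smooth muscle myosin heavy chain, fell from 311 ± 94.3 to 56.8 ± 6.96 CPM (log2 fold change -2.45 ± 0.30, adjusted p = 2.99e-05). Of the other defining markers, Cnn1 fell (log2 fold change -1.76, adjusted p = 0.00343, 0.061 with the block). Tagln was not called in the main fit or under any alternative. The part of the smooth muscle difference in the arterial result was not tested. In bulk RNA, fewer cells of a type and less RNA per cell cannot be told apart.

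Markers of other vessel segments changed less uniformly. Of 22 capillary genes 8 fell and 2 rose, with a median of -0.45, and with the block 2 rises and none of the falls were called. Among 25 venous genes 3 rose and 3 fell (median 0.19). The list gave 1 rise and 1 fall with the block and 4 and 5 without flox 4. Tmsb10, a small actin-binding protein, rose from 301 ± 13.1 to 449 ± 29.6 CPM (log2 fold change 0.57 ± 0.10, adjusted p = 0.000952). Ctsc, a lysosomal protease counted with the venous genes, stood at 146, 97.5, 100.5 and 64 CPM in the flox libraries and 38.3, 36.4, 28.5, 37.7 and 31.1 CPM in the KO libraries and fell in every KO library below the flox range (log2 fold change -1.57 ± 0.22, adjusted p = 9.28e-05). The venous determinant Nr2f2 was at 51 ± 9.36 CPM in flox and 63.5 ± 9.78 CPM in KO (adjusted p = 0.202). Of 29 genes shared by all endothelium 5 rose, 2 fell and 22 did not pass the test, a share called of 24.1%. Counts were 4 rises and 6 falls without both neuron-marker libraries and 5 and 6 without flox 4. Adgrl4, an adhesion receptor of endothelium, rose from 1287 ± 132 to 2124 ± 236 CPM (log2 fold change 0.72 ± 0.11, adjusted p = 0.000306). Robo4, an endothelial guidance receptor, rose from 534 ± 70.3 to 839 ± 37 CPM (log2 fold change 0.65 ± 0.09, adjusted p = 0.000147). Cd34 rose from 655 ± 85 to 889 ± 63.4 CPM (log2 fold change 0.44 ± 0.09, adjusted p = 0.00324). The VE-cadherin gene Cdh5 was at 1106 ± 192 CPM in flox and 1094 ± 53.3 CPM in KO (adjusted p = 0.935). Kdr, VEGF receptor 2, was at 969 ± 207 CPM in flox and 1042 ± 110.5 CPM in KO (adjusted p = 0.791).

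Transcription factors of endothelium fell more often than they rose, 12 against 2 of 34 tested (36 listed), with 7 falls and both rises also called with the block. Meox1, a homeobox factor, stood at 9.55, 10.3, 13.8 and 15.2 CPM in the flox libraries and 52.2, 58.5, 63.4, 57.2 and 66.3 CPM in the KO libraries. Every KO library was higher (log2 fold change 2.28 ± 0.15, adjusted p = 4.93e-08). Ppard, a fatty acid-sensing nuclear receptor, fell from 134 ± 29.4 to 79.3 ± 3.42 CPM (log2 fold change -0.76 ± 0.14, adjusted p = 0.000905, 0.0697 with the block). Sox18 fell from 346 ± 96.9 to 199 ± 17.5 CPM (log2 fold change -0.80 ± 0.17, adjusted p = 0.00393, 0.073 with the block). Erg, a central endothelial factor, was at 309 ± 52.3 CPM in flox and 356 ± 47.6 CPM in KO (adjusted p = 0.256). Foxf2, a factor of brain endothelium and pericytes, was at 172 ± 33.4 CPM in flox and 135 ± 21.1 CPM in KO (adjusted p = 0.115, 0.00502 without both neuron-marker libraries).

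**Figure D2:**
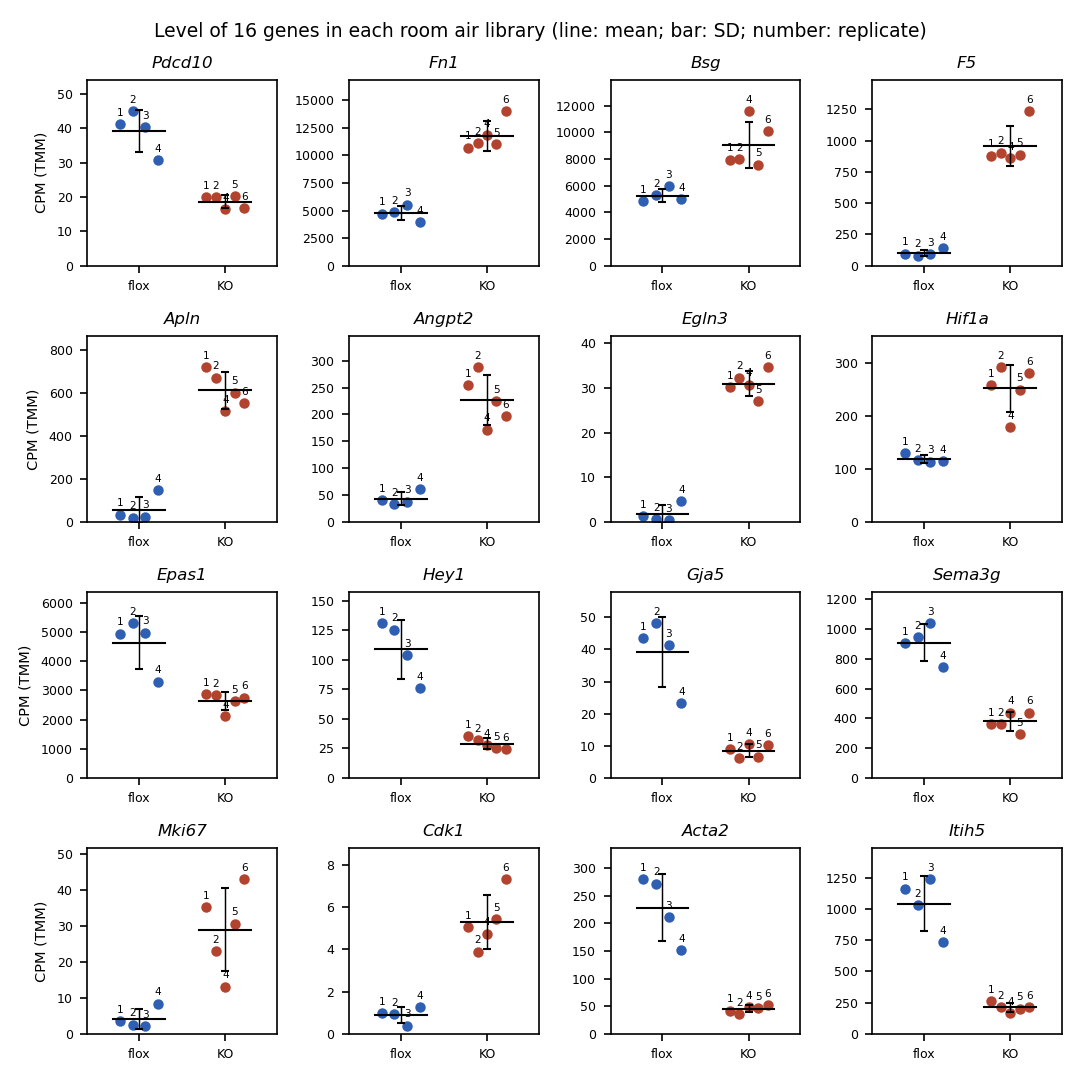
Level (TMM-scaled CPM, linear axis from 0) of 16 genes in each room-air library, with dots for libraries, a line for the mean and a bar for the SD in flox (n = 4) and KO (n = 5). Pdcd10, Epas1, Hey1, Gja5, Sema3g, Acta2 and Itih5 are lower in KO and the other 9 genes higher.

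At the blood-brain barrier, transporters and junction genes moved both ways. Of 41 tested (42 listed) barrier solute carriers 4 rose and 7 fell, a share called of 26.8% against 16.6% of all genes tested. With the block 3 rises and none of the falls were called. Counts were 3 rises and 4 falls without KO 6 or flox 2 and 4 and 4 without flox 1. Slc16a1, a lactate and ketone transporter, stood at 866, 635, 754 and 694 CPM in the flox libraries and 1585, 1490, 1157, 1429 and 1308 CPM in the KO libraries, with KO above flox throughout (log2 fold change 0.92 ± 0.17, adjusted p = 0.00128). The organic anion transporter Slc22a8 fell from 528 ± 132 to 261 ± 27 CPM (log2 fold change -1.02 ± 0.23, adjusted p = 0.00585, 0.173 with the block). The metal carrier Slc39a8 fell from 183 ± 41.8 to 103 ± 7.97 CPM (log2 fold change -0.82 ± 0.15, adjusted p = 0.0013, 0.0565 with the block). The glucose transporter Slc2a1 was at 3876 ± 737 CPM in flox and 4557 ± 332 CPM in KO (adjusted p = 0.285), and the amino acid transporter Slc7a5 at 1566 ± 453 CPM in flox and 1986 ± 187 CPM in KO (adjusted p = 0.187). Mfsd2a, a lysolipid carrier that restrains transcytosis, fell from 346 ± 69.3 to 235 ± 44.4 CPM (log2 fold change -0.56 ± 0.17, adjusted p = 0.0321, 0.183 with the block and up to 0.09 without KO 6, flox 1, flox 2 or flox 3).

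Of 24 tested (25 listed) ABC transporters 3 rose and none fell, a share called of 12.5% against 16.6% of all genes tested. The list gave 1 rise and 0 falls with the block, 5 and 4 without both neuron-marker libraries and 5 and 3 without flox 4. Abcc1, a broad efflux pump, rose from 18.4 ± 3.32 to 28.5 ± 1.87 CPM (log2 fold change 0.63 ± 0.11, adjusted p = 0.000906). The main drug pumps were at 2284 ± 393 CPM in flox and 1998 ± 232 CPM in KO for Abcb1a (adjusted p = 0.299, 0.0173 without both neuron-marker libraries) and 617 ± 114 CPM in flox and 519.8 ± 51.9 CPM in KO for Abcg2 (adjusted p = 0.193, 0.0123 without both neuron-marker libraries). Abcc9 and Kcnj8, which together form a potassium channel sensitive to ATP in pericytes and smooth muscle, both rose. Kcnj8 stood at 1.88, 2.58, 0.955 and 2.37 CPM in the flox libraries and 18.2, 24.4, 9.09, 23 and 12.6 CPM in the KO libraries (log2 fold change 3.16 ± 0.46, adjusted p = 0.000163), and Abcc9 rose from 6.96 ± 2.58 to 54.2 ± 21.6 CPM (log2 fold change 2.96 ± 0.57, adjusted p = 0.00184, 0.0857 with the block). They are 2 of the 4 pericyte markers that rose among 16. The list gave 1 rise and 0 falls with the block. The summed pericyte level was 602 to 1650 CPM in flox and 1010 to 1740 CPM in KO, and the defining marker Pdgfrb was at 62.4 ± 31.8 CPM in flox and 82.2 ± 12.8 CPM in KO (adjusted p = 0.533).

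Of 33 tested (36 listed) junction genes 8 rose and 2 fell, 5 and 1 of them with the block too. Counts were 9 rises and 5 falls without both neuron-marker libraries and 9 and 5 without flox 4. Plakoglobin, Jup, rose from 259.5 ± 39.1 to 368 ± 31.5 CPM (log2 fold change 0.50 ± 0.09, adjusted p = 0.00127). The adhesion molecule F11r rose from 187 ± 23 to 239 ± 9.51 CPM (log2 fold change 0.35 ± 0.08, adjusted p = 0.00788). Ildr2, a protein of the angulin family that marks junctions where cells meet, stood at 90.1, 109, 102 and 111 CPM in the flox libraries and 33.9, 31.4, 53.8, 31.5 and 39.1 CPM in the KO libraries and fell (log2 fold change -1.44 ± 0.16, adjusted p = 1.26e-05), and Jam2 fell from 476 ± 88.7 to 303 ± 20.6 CPM (log2 fold change -0.65 ± 0.13, adjusted p = 0.00206, 0.0625 with the block). Claudin 5, Cldn5, the main sealing claudin, was at 1652 ± 279.6 CPM in flox and 1950 ± 303 CPM in KO (adjusted p = 0.213). Ocln, occludin, was at 417 ± 69 CPM in flox and 336 ± 49.1 CPM in KO (adjusted p = 0.115, 0.0113 without both neuron-marker libraries). Tjp1 was at 1245 ± 225 CPM in flox and 1124 ± 215 CPM in KO (adjusted p = 0.55).

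Genes of vesicle traffic gave 7 rises and 2 falls among 29, and all 7 rises were called with the block. Counts were 7 rises and 0 falls without KO 6, flox 1 or flox 2 and 8 and 0 without flox 3. Ehd1, which recycles endocytosed receptors, stood at 92.3, 92.7, 101 and 92.2 CPM in the flox libraries and 196, 202, 247, 223 and 241 CPM in the KO libraries. The groups did not overlap (log2 fold change 1.23 ± 0.11, adjusted p = 1.82e-06). Pacsin2, which shapes caveolae, rose from 93.4 ± 2.67 to 126 ± 7.63 CPM (log2 fold change 0.43 ± 0.06, adjusted p = 0.000178). Dnm2, dynamin 2, which cuts vesicles from the membrane, rose from 272 ± 34.3 to 371 ± 9.68 CPM (log2 fold change 0.45 ± 0.07, adjusted p = 0.000493). Ralgapa2, part of a complex that switches off Ral GTPases, rose from 30.6 ± 2.21 to 47.3 ± 6.3 CPM (log2 fold change 0.63 ± 0.09, adjusted p = 0.000175). Cav1, caveolin 1, was at 463 ± 82.9 CPM in flox and 487 ± 59 CPM in KO (adjusted p = 0.754). Plvap, a marker of fenestrated and leaky vessels, was at 14.7 ± 14.4 CPM in flox and 19.9 ± 9.13 CPM in KO (adjusted p = 0.693).

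Wnt signalling through beta-catenin keeps the barrier. Of 39 tested (42 listed) genes 5 rose and 1 fell, 15.4% in all and near the 16.6% of all genes tested. The list gave 3 rises and 1 fall with the block, 7 and 8 without both neuron-marker libraries, 4 and 3 without KO 1, 5 and 3 without KO 2, 3 and 0 without flox 2 or flox 3 and 7 and 8 without flox 4. The receptor Fzd1 rose from 19.5 ± 1.26 to 31.8 ± 2.38 CPM (log2 fold change 0.70 ± 0.10, adjusted p = 0.000143). Tnfrsf19, a receptor of the tumour necrosis factor family and a Wnt target, rose from 288 ± 38.1 to 372 ± 19.5 CPM (log2 fold change 0.37 ± 0.09, adjusted p = 0.0117). Its call was lost without the 3 libraries with both Xist and Ddx3y. The target Axin2 was at 164 ± 37.6 CPM in flox and 111 ± 30.6 CPM in KO, adjusted p = 0.0697 without the block and 0.0219 with the block. Apcdd1, an inhibitor and target, was at 917 ± 177 CPM in flox and 654 ± 84.6 CPM in KO (adjusted p = 0.0565, 0.0235 without both neuron-marker libraries). Lef1, a transcription factor of the pathway, was at 177 ± 25.4 CPM in flox and 136 ± 25.6 CPM in KO (adjusted p = 0.0871, 0.0266 without both neuron-marker libraries). In the Notch pathway 2 of 29 tested (30 listed) rose and 4 fell, a share called of 20.7% against 16.6% of all genes tested. The list gave 0 rises and 2 falls with the block, 2 and 9 without both neuron-marker libraries, 4 and 6 without KO 4, 2 and 1 without flox 2, 2 and 2 without flox 3 and 1 and 7 without flox 4. The receptor Notch1 fell from 483 ± 106 to 351 ± 40.6 CPM (log2 fold change -0.46 ± 0.13, adjusted p = 0.0252, 0.063 with the block and up to 0.0898 without flox 1, flox 2 or flox 3). The target Hey2 fell from 11.5 ± 4.39 to 5.65 ± 0.982 CPM (log2 fold change -1.02 ± 0.26, adjusted p = 0.0137, up to 0.0576 without flox 1 or flox 2). The ligand Dll4 was at 173 ± 74 CPM in flox and 190.3 ± 105 CPM in KO (adjusted p = 0.86). Notch4 was at 508 ± 95.6 CPM in flox and 474 ± 51.7 CPM in KO (adjusted p = 0.704).

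BMP and TGF-beta genes moved both ways. Of 48 tested (51 listed) genes 10 rose and 8 fell. The list gave 6 rises and 5 falls with the block, 9 and 5 without KO 1, 8 and 5 without KO 2 or KO 5 and 9 and 4 without flox 2. Among ligands, Bmp2 stood at 20.6, 20.8, 14.5 and 24.6 CPM in the flox libraries and 105, 118, 100.5, 165 and 155 CPM in the KO libraries and rose in every KO library (log2 fold change 2.68 ± 0.45, adjusted p = 0.000642, 0.067 with the block), while Tgfb2 stood at 157, 163, 139 and 106 CPM in the flox libraries and 65.6, 57.9, 46.9, 54.9 and 48.8 CPM in the KO libraries and fell in every KO library (log2 fold change -1.36 ± 0.14, adjusted p = 6.81e-06). Of the signal transducers, Smad3, which carries TGF-beta signals, rose from 64.3 ± 2.77 to 138 ± 10.6 CPM (log2 fold change 1.10 ± 0.08, adjusted p = 1.35e-07). Smad6, an inhibitor of BMP signals, fell from 75.7 ± 13 to 32 ± 3.45 CPM (log2 fold change -1.24 ± 0.14, adjusted p = 1.2e-05). Pmepa1, a target that limits TGF-beta signalling, rose from 82.2 ± 10.4 to 188 ± 9.63 CPM (log2 fold change 1.19 ± 0.08, adjusted p = 1.02e-07). The BMP target Id1 was at 326 ± 119 CPM in flox and 325 ± 152 CPM in KO (adjusted p = 0.997).

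Of 21 tested (23 listed) genes used to follow endothelial-to-mesenchymal transition 7 rose and 2 fell. The list gave 4 rises and 1 fall with the block. Col3a1, a fibrillar collagen, stood at 9.76, 5.39, 8.9 and 9.46 CPM in the flox libraries and 40.8, 34.1, 71.8, 62 and 74.8 CPM in the KO libraries (log2 fold change 2.76 ± 0.28, adjusted p = 5.5e-06). Itgb1, the beta 1 integrin, rose from 771 ± 85.5 to 1022 ± 99.2 CPM (log2 fold change 0.41 ± 0.09, adjusted p = 0.00433). Vim, vimentin, rose from 900.5 ± 116 to 1183 ± 67 CPM (log2 fold change 0.39 ± 0.09, adjusted p = 0.00797, 0.0572 with the block). The transcription factor Snai1 was at 6.32 ± 4.67 CPM in flox and 14.3 ± 7.21 CPM in KO (adjusted p = 0.305), and the list's smooth muscle genes Acta2 and Cnn1 were the 2 that fell (adjusted p for Cnn1 = 0.00343, 0.061 with the block). The perivascular fibroblast markers, which share Col3a1, summed to 73.3 to 1020 CPM in flox and 151 to 323 CPM in KO, and the defining marker Pdgfra was at 12.4 ± 16.4 CPM in flox and 6.83 ± 8.35 CPM in KO (adjusted p = 0.486). The part of such cells in these rises was not tested.

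In the VEGF family 3 of 15 rose and 3 fell. The list gave 0 rises and 2 falls with the block. Pgf, placental growth factor, a ligand of FLT1, stood at 13.3, 6.47, 3.34 and 8.36 CPM in the flox libraries and 37, 42.5, 31.2, 48.5 and 28.5 CPM in the KO libraries (log2 fold change 2.26 ± 0.49, adjusted p = 0.00475, 0.0853 with the block), so it rose while its receptor Flt1 fell. Nrp2, a coreceptor, rose from 189 ± 21.1 to 286 ± 64.9 CPM (log2 fold change 0.60 ± 0.14, adjusted p = 0.00793, 0.139 with the block). The ligand Pdgfd fell from 116 ± 18.7 to 81.5 ± 9.58 CPM (log2 fold change -0.51 ± 0.12, adjusted p = 0.00822). Vegfa was at 17.5 ± 8.05 CPM in flox and 30.5 ± 7.51 CPM in KO (adjusted p = 0.232). Of 9 tested (12 listed) angiopoietin and Tie genes 3 rose and 1 fell. Angpt2, which antagonises the receptor TIE2 and loosens vessels, stood at 39.8, 32.5, 37.5 and 60.5 CPM in the flox libraries and 254, 288, 172, 224 and 196 CPM in the KO libraries (log2 fold change 2.41 ± 0.23, adjusted p = 2.56e-06). Angpt1, the stabilising ligand usually made by mural cells, rose as well, from 9.42 ± 0.421 to 31.2 ± 7.48 CPM (log2 fold change 1.73 ± 0.32, adjusted p = 0.00111). The receptors were at 1092 ± 204 CPM in flox and 1076 ± 98 CPM in KO for Tek (TIE2, adjusted p = 0.93) and 926 ± 186 CPM in flox and 1014 ± 190.4 CPM in KO for Tie1 (adjusted p = 0.655).

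Genes of tip cells, which lead sprouting vessels, rose together: 16 of 27 tested (28 listed) rose and 3 fell, with a median of 1.08, and 13 rises and 1 fall were also called with the block. Apln, the peptide apelin, stood at 32.2, 18.5, 22.9 and 146 CPM in the flox libraries and 722, 673, 515, 602 and 554 CPM in the KO libraries. The lowest KO library exceeded the highest flox library, and the mean rose from 54.9 ± 61 to 613 ± 84.9 CPM (log2 fold change 3.48 ± 0.53, adjusted p = 0.00026). Trp53i11, which p53 is known to induce, rose from 32.6 ± 17.4 to 150.2 ± 22.3 CPM (log2 fold change 2.2 ± 0.26, adjusted p = 2.04e-05). Kcne3, a potassium channel subunit, rose from 0.764 ± 0.258 to 2.63 ± 0.376 CPM (log2 fold change 1.75 ± 0.24, adjusted p = 8.88e-05). The tip cell genes Esm1 and Cxcr4 were at 2.66 ± 2.18 CPM in flox and 6.89 ± 1.3 CPM in KO (adjusted p = 0.212) and 9.62 ± 3.93 CPM in flox and 21.4 ± 10.4 CPM in KO (adjusted p = 0.103). Of 56 axon guidance genes 7 rose and 8 fell, a share called of 26.8% against 16.6% of all genes tested. The list gave 4 rises and 8 falls with the block, 9 and 19 without KO 4 and 4 and 8 without flox 2.

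The basement membrane list held rises and falls of distinct members. Of 32 genes 12 rose and 8 fell, and 11 rises and 3 falls were also called with the block. The main collagen IV chains rose, Col4a1 from 1704 ± 113 to 2615 ± 268 CPM (log2 fold change 0.62 ± 0.09, adjusted p = 0.000222) and Col4a2 from 1199 ± 45.4 to 1866 ± 126 CPM (log2 fold change 0.64 ± 0.09, adjusted p = 0.000166). Their linkers rose too, Nid1, a nidogen, from 144 ± 10.7 to 291 ± 21.2 CPM (log2 fold change 1.01 ± 0.11, adjusted p = 9.38e-06) and Hspg2, the proteoglycan perlecan, from 830.2 ± 147 to 1474 ± 216 CPM (log2 fold change 0.83 ± 0.13, adjusted p = 0.000299). Laminin chains of vascular basement membrane rose, Lama4 from 154 ± 22.3 to 284 ± 19.6 CPM (log2 fold change 0.88 ± 0.13, adjusted p = 0.000131) and Lamc1 from 342 ± 25.4 to 579.6 ± 30.2 CPM (log2 fold change 0.76 ± 0.08, adjusted p = 1.05e-05). Lama3, an alpha chain better known from epithelia, stood at 110.5, 111, 106 and 62.7 CPM in the flox libraries and 25, 21.7, 23.2, 17.2 and 29.5 CPM in the KO libraries and fell in every KO library (log2 fold change -2.07 ± 0.27, adjusted p = 5.04e-05).

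Matrix receptors and proteases changed too. Of 26 tested (29 listed) genes for fibronectin-like matrix and integrins 4 rose and 3 fell, 26.9% called against 16.6% of all genes tested. Counts were 4 rises and 5 falls without both neuron-marker libraries and 5 and 5 without flox 4. Itgb4, a laminin-binding integrin of arteriolar endothelium and epithelia, rose from 42.8 ± 4.37 to 91.1 ± 16.1 CPM (log2 fold change 1.09 ± 0.18, adjusted p = 0.000468). Itga8, an integrin of smooth muscle and mesangial cells, fell from 7.93 ± 1.33 to 2.23 ± 1.21 CPM (log2 fold change -1.80 ± 0.31, adjusted p = 0.000594). Among 42 tested (45 listed) proteases and their inhibitors 8 rose and 2 fell, a share called of 23.8%. The list gave 8 rises and 0 falls with the block, 11 and 5 without both neuron-marker libraries and 9 and 4 without KO 4. Mmp14, a membrane-bound collagenase, stood at 8.25, 9.42, 8.64 and 13 CPM in the flox libraries and 24.2, 23.6, 33.6, 25.4 and 37.7 CPM in the KO libraries (log2 fold change 1.56 ± 0.20, adjusted p = 4.19e-05). Adam15 rose from 383 ± 22.2 to 692 ± 111 CPM (log2 fold change 0.85 ± 0.13, adjusted p = 0.000174). The serine protease Htra3 rose from 19.5 ± 6.24 to 44.8 ± 7.49 CPM (log2 fold change 1.2 ± 0.18, adjusted p = 0.00016). Adamts9 rose from 39 ± 3.99 to 68.5 ± 18.4 CPM (log2 fold change 0.81 ± 0.20, adjusted p = 0.00864). Loxl2, which crosslinks collagen, rose from 5.22 ± 1.84 to 28.3 ± 3.08 CPM (log2 fold change 2.43 ± 0.24, adjusted p = 2.89e-06). Serpinh1, the collagen chaperone HSP47, rose from 312 ± 53.8 to 521 ± 25.3 CPM (log2 fold change 0.74 ± 0.16, adjusted p = 0.0036). Its call was lost without the 3 libraries with both Xist and Ddx3y.

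The mice breathed room air, and genes of the oxygen-sensing pathway changed with genotype. Hypoxia-inducible factors are degraded after prolyl hydroxylases of the EGLN family mark them, and low oxygen stops this. Hif1a stood at 129.9, 117, 114 and 114 CPM in the flox libraries and 259, 293, 179.5, 250.2 and 282 CPM in the KO libraries. Every KO library was higher (log2 fold change 1.09 ± 0.12, adjusted p = 1.2e-05). Epas1, which encodes HIF-2 alpha, the main form of endothelium, stood at 4952, 5310, 4989 and 3303 CPM in the flox libraries and 2862, 2842, 2118, 2635 and 2756 CPM in the KO libraries. Here every KO library was lower (log2 fold change -0.81 ± 0.13, adjusted p = 0.000307). Corrected for length with the authors' deposited RPKM values, Hif1a was at 20.6 ± 0.783 RPKM in flox and 41.5 ± 7.22 RPKM in KO, and Epas1 at 852 ± 179 RPKM in flox and 458 ± 50.4 RPKM in KO, so Epas1 remained the more abundant transcript. Egln3, itself a HIF target, stood at 1.2, 0.609, 0.304 and 4.61 CPM in the flox libraries and 30.2, 32.3, 30.7, 27 and 34.7 CPM in the KO libraries (log2 fold change 4.17 ± 0.49, adjusted p = 2.22e-05). Egln1 rose from 93.8 ± 7.89 to 113 ± 4.06 CPM (log2 fold change 0.27 ± 0.07, adjusted p = 0.0105, 0.0505 without both neuron-marker libraries). Vhl was at 22.4 ± 2.03 CPM in flox and 24.4 ± 3.09 CPM in KO (adjusted p = 0.4).

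Of 36 tested (37 listed) HIF targets 16 rose and 3 fell, 11 and 1 also with the block, and the median was 0.28. Slc16a3, the lactate exporter MCT4, stood at 3.13, 2.39, 2.69 and 7.5 CPM in the flox libraries and 35.4, 38, 27.9, 39 and 28.3 CPM in the KO libraries (log2 fold change 3.09 ± 0.35, adjusted p = 1.38e-05). Pdk1, a kinase that diverts pyruvate from mitochondria, rose from 24.1 ± 2.71 to 52.5 ± 2.54 CPM (log2 fold change 1.12 ± 0.11, adjusted p = 2.56e-06). Adm, adrenomedullin, a peptide that widens vessels, rose from 28.7 ± 21.8 to 118 ± 42.9 CPM (log2 fold change 2.04 ± 0.56, adjusted p = 0.0213, 0.0629 with the block and up to 0.0705 without flox 2 or flox 3). The targets Ddit4 and Bnip3 were at 228 ± 74.8 CPM in flox and 211 ± 61 CPM in KO (adjusted p = 0.79) and 21.9 ± 3.58 CPM in flox and 27.7 ± 2.4 CPM in KO (adjusted p = 0.177). HIF binds DNA at the core ACGTG or GCGTG, so the 200 bases before the start site are shown for 4 genes. These had the smallest adjusted p among called members of 2 joined lists, HIF targets and the KLF and ADAMTS programme. Only genes with a promoter entry were taken, and they were chosen after their values were seen. The promoters are from RefSeq on GRCm38.p6, with each core match on either strand in capitals.
Pdk1 (chr2:71873024-71873223, plus strand): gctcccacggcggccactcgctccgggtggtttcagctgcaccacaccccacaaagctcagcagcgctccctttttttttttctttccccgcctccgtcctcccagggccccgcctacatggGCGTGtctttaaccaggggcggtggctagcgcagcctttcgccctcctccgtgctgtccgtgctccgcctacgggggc
Slc16a3 (chr11:120948867-120949066, plus strand): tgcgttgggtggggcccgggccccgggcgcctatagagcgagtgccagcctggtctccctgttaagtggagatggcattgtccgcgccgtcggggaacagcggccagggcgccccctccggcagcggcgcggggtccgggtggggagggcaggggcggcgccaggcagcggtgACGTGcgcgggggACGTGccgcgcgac
Egln3 (chr12:54203875-54204074, minus strand): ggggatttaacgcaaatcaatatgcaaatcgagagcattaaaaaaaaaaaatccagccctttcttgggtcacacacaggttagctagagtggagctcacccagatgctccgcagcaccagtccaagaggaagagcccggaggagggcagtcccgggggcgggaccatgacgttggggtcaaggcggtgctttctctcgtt
Mxi1 (chr19:53310306-53310505, plus strand): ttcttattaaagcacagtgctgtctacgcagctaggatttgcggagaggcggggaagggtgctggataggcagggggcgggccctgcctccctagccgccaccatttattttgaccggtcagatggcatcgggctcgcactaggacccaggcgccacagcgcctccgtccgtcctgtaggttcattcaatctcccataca
The window of Pdk1 held 1 match, that of Slc16a3 held 2, and those of Egln3 and Mxi1 held 0, which says only that these letters are not in these windows. Thbd and Loxl2, called members of the joined lists, had no promoter entry and are named without a sequence. At least 1 promoter window held the core in 21 of the 25 HIF targets with an entry used (84.0%) and in 11 of the 13 that rose (84.6%). The shares were 37.0% of all 27025 genes with an entry used and 53.4% of the 11699 tested genes with one. Counted per promoter, the core was in 69.4% of 36 promoters of HIF targets and 47.5% of 14956 promoters of tested genes. These shares are descriptions, since the members were listed as HIF targets. A match describes letters and not binding.

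Glycolysis genes rose while respiratory chain genes showed few changes. Of 20 glycolytic genes 9 rose and none fell, and all 9 were also called with the block. Counts were 15 rises and 0 falls without both neuron-marker libraries, 9 and 2 without KO 4 and 14 and 0 without flox 4. Pkm, pyruvate kinase, stood at 376, 349.5, 385 and 538 CPM in the flox libraries and 688, 654, 909, 626 and 713 CPM in the KO libraries. The groups did not overlap (log2 fold change 0.80 ± 0.13, adjusted p = 0.000533). Hk1, the first enzyme of the pathway, rose from 163 ± 28.3 to 251 ± 20.0 CPM (log2 fold change 0.62 ± 0.10, adjusted p = 0.000255). Pfkl, a phosphofructokinase, rose from 111 ± 10.4 to 205 ± 31.7 CPM (log2 fold change 0.88 ± 0.11, adjusted p = 4.2e-05). Ldha, which makes lactate, rose from 229 ± 24.6 to 389 ± 14.1 CPM (log2 fold change 0.76 ± 0.09, adjusted p = 1.61e-05). Of 50 nuclear genes of the respiratory chain 1 rose and none fell. None of 13 mitochondrial genes was called, and mt-Co1 was at 7428 ± 3079 CPM in flox and 8021 ± 1036 CPM in KO (adjusted p = 0.777).

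Lipid genes changed in a few places. Of 30 tested (31 listed) cholesterol synthesis genes 1 fell and none rose. Of 40 fatty acid genes 3 rose and 7 fell, a share called of 25.0% against 16.6% of all genes tested. Counts were 6 rises and 11 falls without both neuron-marker libraries, 3 and 12 without KO 4, 3 and 4 without KO 5 and 6 and 6 without flox 4. Acacb, an acetyl-CoA carboxylase at mitochondria that limits fatty acid oxidation, stood at 125, 168, 178 and 108 CPM in the flox libraries and 59.2, 67.3, 73.9, 55.7 and 71.1 CPM in the KO libraries and fell in every KO library (log2 fold change -1.15 ± 0.16, adjusted p = 0.00011). Elovl1, which lengthens very long fatty acids, rose from 68.3 ± 6.44 to 98.5 ± 10.2 CPM (log2 fold change 0.53 ± 0.10, adjusted p = 0.00147).

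**Figure D3:**
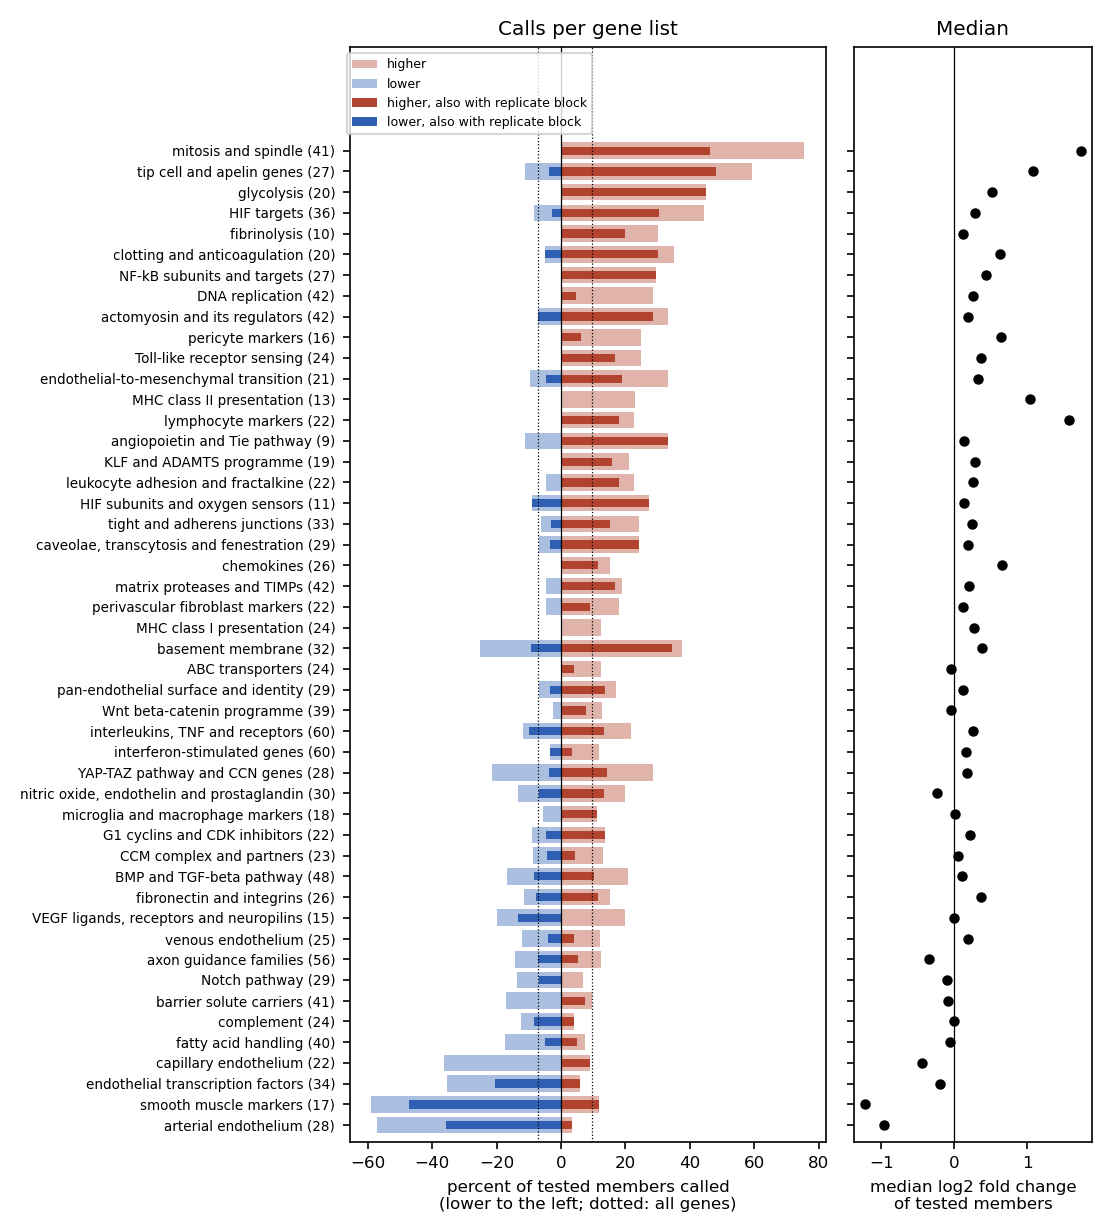
Percent of the tested members of each gene list that rose (right) or fell (left) in KO, darker where also called with the replicate block, for lists with at least 3 calls, beside the list's median log2 fold change. Dotted lines give the share of all tested genes, 9.54% higher and 7.03% lower; mitosis, tip cell and smooth muscle lists lie far beyond them.

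Vasoactive genes changed in both directions. Of 30 tested (33 listed) genes of nitric oxide, endothelin and prostaglandin signalling 6 rose and 4 fell. The list gave 4 rises and 2 falls with the block. Slco2a1, a transporter that clears prostaglandins, stood at 12.1, 16, 16.9 and 14.1 CPM in the flox libraries and 94.2, 60.0, 75.3, 97.7 and 105 CPM in the KO libraries (log2 fold change 2.55 ± 0.31, adjusted p = 3.03e-05). Ddah1, which breaks down an inhibitor of nitric oxide synthase, rose from 96.4 ± 18.4 to 146 ± 14.5 CPM (log2 fold change 0.60 ± 0.12, adjusted p = 0.00215). Nos3, the endothelial synthase, rose from 261 ± 45.4 to 345 ± 41 CPM (log2 fold change 0.40 ± 0.12, adjusted p = 0.0339, 0.139 with the block, 0.129 without both neuron-marker libraries and up to 0.129 without KO 5, KO 6, flox 1 or flox 4). Pla2g4a, which frees arachidonic acid, fell from 55.6 ± 20.1 to 23.4 ± 3.97 CPM (log2 fold change -1.25 ± 0.23, adjusted p = 0.00106). Edn1, endothelin 1, was at 251 ± 105 CPM in flox and 187 ± 61.1 CPM in KO (adjusted p = 0.407).

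Blood clotting genes rose on both the procoagulant and the anticoagulant side. Of 20 tested (23 listed) genes 7 rose and 1 fell. F5, coagulation factor V, the cofactor that speeds thrombin formation, stood at 95.9, 80.2, 89.2 and 138 CPM in the flox libraries and 878, 904, 859, 888 and 1237 CPM in the KO libraries. The groups were far apart (log2 fold change 3.24 ± 0.18, adjusted p = 2.53e-08). Tfpi, which blocks the start of coagulation by tissue factor, rose from 42.2 ± 2.98 to 131 ± 22.9 CPM (log2 fold change 1.63 ± 0.10, adjusted p = 4.93e-08). Procr, the receptor for protein C, rose from 24.5 ± 1.84 to 64.7 ± 8.38 CPM (log2 fold change 1.4 ± 0.18, adjusted p = 5.11e-05). Thbd, thrombomodulin, rose from 573 ± 59 to 1508 ± 124 CPM (log2 fold change 1.4 ± 0.13, adjusted p = 1.92e-06). The tissue factor gene F3 was at 5.34 ± 8.79 CPM in flox and 3.66 ± 5.17 CPM in KO (adjusted p = 0.726). Plat, the plasminogen activator of endothelium, was at 532 ± 190.0 CPM in flox and 364 ± 117 CPM in KO (adjusted p = 0.303).

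Components of inflammatory signalling rose, while several of the best known adhesion molecules and cytokines did not pass the test. With the immediate early level as a covariate, the median log2 fold change went from 0.44 to 0.16 for NF-kB genes. It went from 0.37 to 0.23 for Toll-like receptor genes, 0.25 to 0.11 for interleukins and receptors, 0.26 to -0.06 for adhesion genes and 0.66 to 0.16 for chemokines. For interferon-stimulated genes it went from 0.16 to 0.2. Of 27 tested (29 listed) NF-kB subunits and targets 8 rose, all 8 also with the block, and none fell. Counts were 7 rises and 2 falls without both neuron-marker libraries. Ikbke, a kinase of the pathway, stood at 1.36, 1.78, 1.17 and 1.63 CPM in the flox libraries and 9.12, 8.07, 9.09, 10.6 and 12.9 CPM in the KO libraries (log2 fold change 2.74 ± 0.24, adjusted p = 1.31e-06). The non-canonical subunits rose, Relb from 20.5 ± 4.8 to 37.8 ± 4.74 CPM (log2 fold change 0.88 ± 0.16, adjusted p = 0.000882) and Nfkb2 from 37.1 ± 10.5 to 71 ± 12.6 CPM (log2 fold change 0.94 ± 0.20, adjusted p = 0.00429). Nfkb2 was not called without the 3 libraries with both Xist and Ddx3y. The feedback inhibitors Nfkbie and Tnip1 rose too, from 4.81 ± 0.509 to 11.6 ± 0.702 CPM (log2 fold change 1.27 ± 0.18, adjusted p = 0.00013) and from 36.9 ± 3.94 to 65.6 ± 2.93 CPM (log2 fold change 0.83 ± 0.14, adjusted p = 0.000444). Nfkb1 was at 131 ± 20.4 CPM in flox and 129 ± 12.9 CPM in KO (adjusted p = 0.913). Of 24 tested (25 listed) Toll-like receptor genes 6 rose and none fell. Tlr4, the receptor for bacterial lipopolysaccharide, rose from 9.89 ± 0.54 to 27.7 ± 5.41 CPM (log2 fold change 1.48 ± 0.14, adjusted p = 2.02e-06). Lbp, which delivers lipopolysaccharide to it, rose from 10.6 ± 3.79 to 78.6 ± 22 CPM (log2 fold change 2.89 ± 0.40, adjusted p = 0.000106). Tlr2 rose from 5.86 ± 1.37 to 17.4 ± 2.22 CPM (log2 fold change 1.57 ± 0.28, adjusted p = 0.000851). The adaptor Myd88 was at 20.5 ± 6.04 CPM in flox and 23.6 ± 3.75 CPM in KO (adjusted p = 0.487).

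Of 60 tested (73 listed) interleukins, tumour necrosis factor genes and receptors 13 rose and 7 fell. The list gave 8 rises and 7 falls with the block. Tnfrsf12a, the receptor FN14 for TWEAK, stood at 36.5, 17.6, 17.5 and 24.4 CPM in the flox libraries and 114, 102, 57.2, 108 and 58.9 CPM in the KO libraries (log2 fold change 1.88 ± 0.36, adjusted p = 0.0017). Il2rg, a shared cytokine receptor chain, rose from 61.8 ± 3.57 to 132 ± 6.3 CPM (log2 fold change 1.09 ± 0.10, adjusted p = 2.02e-06). Lifr, the receptor for leukemia inhibitory factor, a cytokine of the interleukin 6 family, fell from 176 ± 33.9 to 54.6 ± 3.69 CPM (log2 fold change -1.69 ± 0.16, adjusted p = 1.88e-06). The ligands were low: Il6 was at 1.04, 0.234, 0.0434 and 0.326 CPM in flox and 4.54, 5.02, 0.0849, 8.3 and 0.349 CPM in KO (adjusted p = 0.0858). Il1b was at 0.867 ± 0.407 CPM in flox and 3.29 ± 2.41 CPM in KO (adjusted p = 0.235). Among adhesion genes 5 of 22 tested (26 listed) rose and 1 fell. Counts were 7 rises and 5 falls without both neuron-marker libraries, 5 and 5 without KO 4, 3 and 2 without flox 2 and 8 and 1 without flox 4. Icam1 was at 721, 319, 75.5 and 131 CPM in the flox libraries and 997, 824, 116, 1019 and 114 CPM in the KO libraries, with overlapping groups (adjusted p = 0.533). Vcam1 was at 321 ± 131 CPM in flox and 492 ± 184 CPM in KO (adjusted p = 0.259). Sele was at 13.9 ± 15.1 CPM in flox and 16.7 ± 13.9 CPM in KO (adjusted p = 0.911).

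Of 26 tested (37 listed) chemokine genes 4 rose and none fell, a share called of 15.4%, near the 16.6% of all genes tested. Ackr2, a decoy receptor that removes inflammatory chemokines, stood at 0.522, 0.234, 0.608 and 4.00 CPM in the flox libraries and 17.4, 19, 16.3, 15.5 and 17.9 CPM in the KO libraries (log2 fold change 3.63 ± 0.50, adjusted p = 0.000113). Cxcl12, a chemokine abundant in endothelium, was at 2598 ± 507 CPM in flox and 2598 ± 158 CPM in KO (adjusted p = 1). Interferon-stimulated genes gave 7 rises and 2 falls of 60, a share of rises near the 9.54% of all genes tested. The list gave 2 rises and 3 falls with the block, 5 and 4 without both neuron-marker libraries, 4 and 3 without KO 6, 4 and 2 without flox 1 or flox 3 and 4 and 4 without flox 4. Ifi204 rose from 0.662 ± 0.245 to 4.28 ± 1.21 CPM (log2 fold change 2.66 ± 0.36, adjusted p = 8.1e-05); genes of its cluster are near copies, so reads may have been split among them. Ifit1 was at 53.8 ± 10.3 CPM in flox and 60.2 ± 10.7 CPM in KO (adjusted p = 0.58). In complement 1 of 24 tested (33 listed) rose and 3 fell, a share called of 16.7% against 16.6% of all genes tested. Counts were 1 rise and 6 falls without KO 4. Cd55, which shields cells from complement, stood at 7.57, 6.84, 7.86 and 21.2 CPM in the flox libraries and 134, 134, 108, 144 and 158 CPM in the KO libraries. Every KO library was higher (log2 fold change 3.64 ± 0.32, adjusted p = 1.55e-06).

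Transcripts of immune cells were present at low levels. The lymphocyte markers summed to 8.29 to 26.3 CPM in flox and 18.3 to 58 CPM in KO. Of these, 5 of 22 tested (26 listed) rose and none fell, a share called of 22.7% against 16.6% of all genes tested. Counts were 3 rises and 0 falls without KO 1, KO 2, KO 5, flox 1 or flox 3 and 8 and 0 without KO 6. Igkc, an immunoglobulin light chain, stood at 1.1, 3.28, 2.91 and 1.1 CPM in the flox libraries and 9.78, 10.6, 5.86, 7.37 and 3.81 CPM in the KO libraries (log2 fold change 1.82 ± 0.40, adjusted p = 0.00456). Cd2 rose from 0.386 ± 0.209 to 2.11 ± 0.261 CPM (log2 fold change 2.43 ± 0.40, adjusted p = 0.000422). MHC class II genes, made by antigen-presenting cells and by some activated endothelium, gave 3 rises of 13 tested (14 listed, 23.1% called) and none with the block. Counts were 5 rises and 0 falls without KO 4 or KO 6 and 0 and 0 without flox 1 or flox 3. Of 18 tested (21 listed) microglia and macrophage markers 2 rose and 1 fell, a share called of 16.7% against 16.6% of all genes tested. Counts were 2 rises and 3 falls without KO 4 and 6 and 1 without flox 4. Lyve1, of border macrophages and lymphatic endothelium, stood at 0.522, 0.562, 0.651 and 0.775 CPM in the flox libraries and 5.91, 6.91, 7.77, 8.15 and 11.4 CPM in the KO libraries (log2 fold change 3.66 ± 0.32, adjusted p = 1.14e-06). The microglial marker P2ry12 was at 5.95 ± 11 CPM in flox and 3.08 ± 5.59 CPM in KO (adjusted p = 0.625). No neuron, astrocyte, oligodendrocyte, neutrophil, erythroid or choroid plexus marker was called; without KO 4, whose counterpart flox 4 then stood alone, 10 neuron and 6 astrocyte markers were lower. The choroid plexus markers summed to 171 to 718 CPM in flox and 232 to 1830 CPM in KO, with Ttr at 213, 32, 90.5 and 251 CPM in the flox libraries and 483, 964, 379.6, 200.4 and 97.3 CPM in the KO libraries (adjusted p = 0.234). The part of immune cell transcripts in the rises of the inflammatory lists was not tested.

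**Figure D4:**
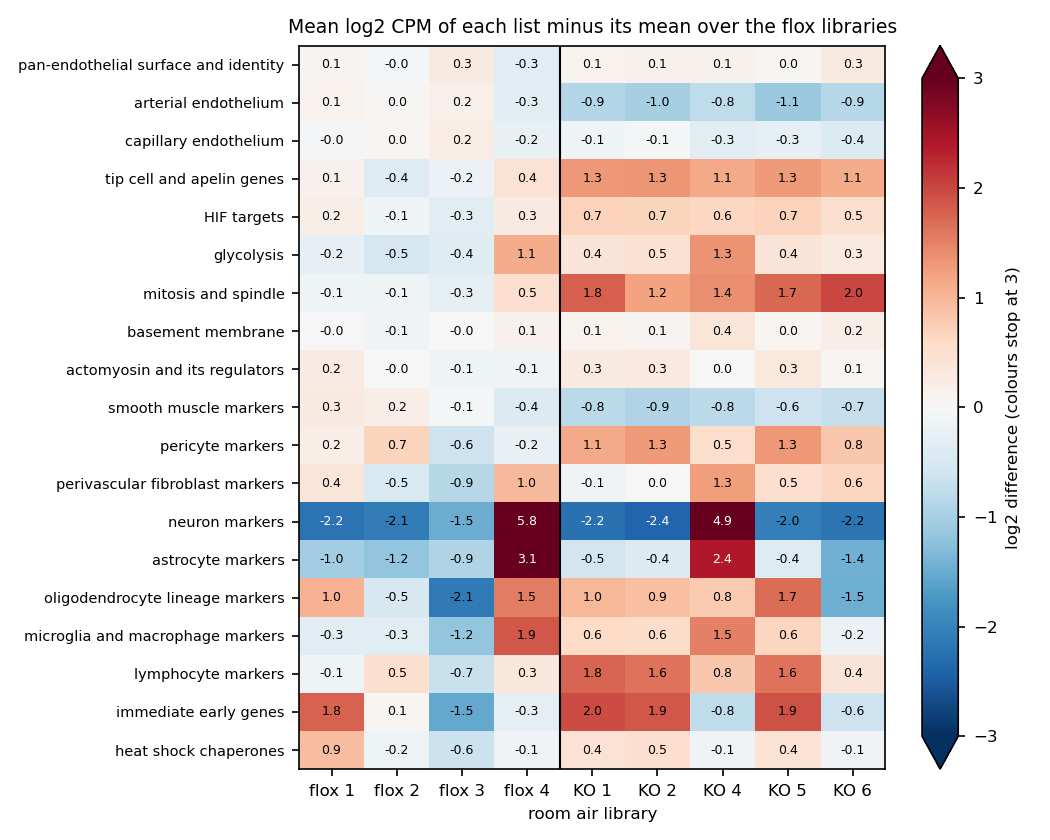
Mean log2 CPM of 19 gene lists in each room-air library, minus the mean of the 4 flox libraries. The neuron and astrocyte rows are high in flox 4 and KO 4, and the mitosis row is above the flox mean in all 5 KO libraries.

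Mitotic transcripts were higher in KO at low absolute levels. Of 41 mitosis and spindle genes 31 rose and none fell, the median was 1.74, and 19 of the rises were also called with the block. Cdk1, the kinase that drives entry into mitosis, stood at 0.992, 0.937, 0.391 and 1.26 CPM in the flox libraries and 5.04, 3.9, 4.75, 5.43 and 7.33 CPM in the KO libraries. The KO libraries were all higher (log2 fold change 2.56 ± 0.32, adjusted p = 3.78e-05). Mki67, the proliferation marker Ki-67, stood at 3.6, 2.53, 2.21 and 8.36 CPM in the flox libraries and 35.1, 23.1, 13.1, 30.6 and 42.9 CPM in the KO libraries (log2 fold change 2.79 ± 0.45, adjusted p = 0.000478, 0.0558 with the block). Ube2c, which helps degrade cyclins, rose from 0.883 ± 0.384 to 5.99 ± 1.7 CPM (log2 fold change 2.75 ± 0.35, adjusted p = 4.58e-05). Cdc20, an activator of the same machinery, rose from 5.95 ± 1.15 to 17.3 ± 2.97 CPM (log2 fold change 1.55 ± 0.17, adjusted p = 8.82e-06). Top2a, a topoisomerase, rose from 3.01 ± 2.48 to 18.6 ± 6.15 CPM (log2 fold change 2.61 ± 0.45, adjusted p = 0.000704, 0.0575 with the block). The list summed to 194 to 231 CPM in flox and 310 to 438 CPM in KO, and the part of the lymphocyte transcripts above in this rise was not tested.

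Cell cycle promoters often hold the CCAAT box and the element TTTGAA, so the 200 bases before the start are shown for the 3 mitotic genes with the smallest adjusted p among those with an entry, chosen after their values were seen. They are from RefSeq on GRCm38.p6, with either motif on either strand in capitals, and 2 CCAAT matches on opposite strands overlap at the first capitals of Ube2c.
Cdc20 (chr4:118437344-118437543, minus strand): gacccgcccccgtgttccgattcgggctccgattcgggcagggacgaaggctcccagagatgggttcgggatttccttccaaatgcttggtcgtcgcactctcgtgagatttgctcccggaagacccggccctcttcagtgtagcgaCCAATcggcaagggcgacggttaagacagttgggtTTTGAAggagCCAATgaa
Cdk1 (chr10:69352913-69353112, minus strand): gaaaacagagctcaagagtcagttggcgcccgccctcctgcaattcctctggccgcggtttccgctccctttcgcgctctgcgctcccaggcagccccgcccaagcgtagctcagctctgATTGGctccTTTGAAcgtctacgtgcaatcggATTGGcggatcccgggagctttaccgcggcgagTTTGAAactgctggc
Ube2c (chr2:164769729-164769928, plus strand): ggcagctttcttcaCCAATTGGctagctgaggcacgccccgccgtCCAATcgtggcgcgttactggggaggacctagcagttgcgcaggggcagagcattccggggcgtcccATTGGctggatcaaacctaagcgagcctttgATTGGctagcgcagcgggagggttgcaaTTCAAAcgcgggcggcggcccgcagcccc
CCAAT was present in 20 of the 25 mitotic genes that rose and had an entry used (80.0%), and in 26 of 34 on the list (76.5%). The shares were 32.7% of all genes with an entry used and 36.1% of tested genes with one. TTTGAA was present in 10 of the 25 (40.0%) and in 11 of the 34 (32.4%), against 14.4% and 9.83%. Both motifs were found in 9 of the 25 (36.0%), against 4.32% of all genes. These shares are descriptions, since the members were listed for their known cell cycle role.

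Of 42 tested (43 listed) DNA replication genes 12 rose and none fell, with 2 also called with the block. Counts were 10 rises and 2 falls without both neuron-marker libraries and 12 and 2 without flox 4. Uhrf1, which maintains DNA methylation at replication, rose from 5.23 ± 0.674 to 17.2 ± 1.41 CPM (log2 fold change 1.72 ± 0.13, adjusted p = 3.14e-07). Pole, the catalytic subunit of a replicative polymerase, rose from 1.1 ± 0.5 to 3.72 ± 0.762 CPM (log2 fold change 1.75 ± 0.32, adjusted p = 0.00123, 0.0576 with the block). Pcna, the sliding clamp, was at 53.1 ± 21.7 CPM in flox and 81.1 ± 39.1 CPM in KO (adjusted p = 0.373). Among the D cyclins that start the cycle, Ccnd1 stood at 87.1, 74.8, 72.2 and 102 CPM in the flox libraries and 246, 251, 241, 222 and 259 CPM in the KO libraries and rose (log2 fold change 1.54 ± 0.18, adjusted p = 2.01e-05), and Ccnd3 rose from 107 ± 9.81 to 168 ± 20.7 CPM (log2 fold change 0.65 ± 0.10, adjusted p = 0.000368). Ccnd2 moved the other way and fell from 141 ± 18.6 to 64.6 ± 1.74 CPM (log2 fold change -1.12 ± 0.13, adjusted p = 1.26e-05). The inhibitor Cdkn1a was at 279.5 ± 139 CPM in flox and 512 ± 116 CPM in KO (adjusted p = 0.156).

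The same contrast was also made after hypoxia, with other flox and KO libraries. Of the 1673 genes that rose in room air 1131 (67.6%) rose after hypoxia too and 11 fell; the 1994 rises there were 11.4% of genes tested. Of the 1232 that fell 898 (72.9%) fell after hypoxia and 0 rose; the 1922 falls there were 11% of genes tested. The interaction of genotype and oxygen was called for 77 genes (0.439%), 76 of which had risen in room air. Of the 41 mitosis genes 23 were among them, and after hypoxia 0 rose and 5 fell, with a median of -0.49. For Mki67 the contrast after hypoxia was log2 fold change -0.78 ± 0.40, adjusted p = 0.181, and the interaction -3.56 ± 0.60, adjusted p = 0.013. For Cdk1 it was log2 fold change -0.25 ± 0.26, adjusted p = 0.532, and the interaction -2.81 ± 0.41, adjusted p = 0.00545. The arterial list had 0 interaction calls, with a median of -1.01 after hypoxia, and the HIF targets 0, with a median of 0.53.

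**Figure D5:**
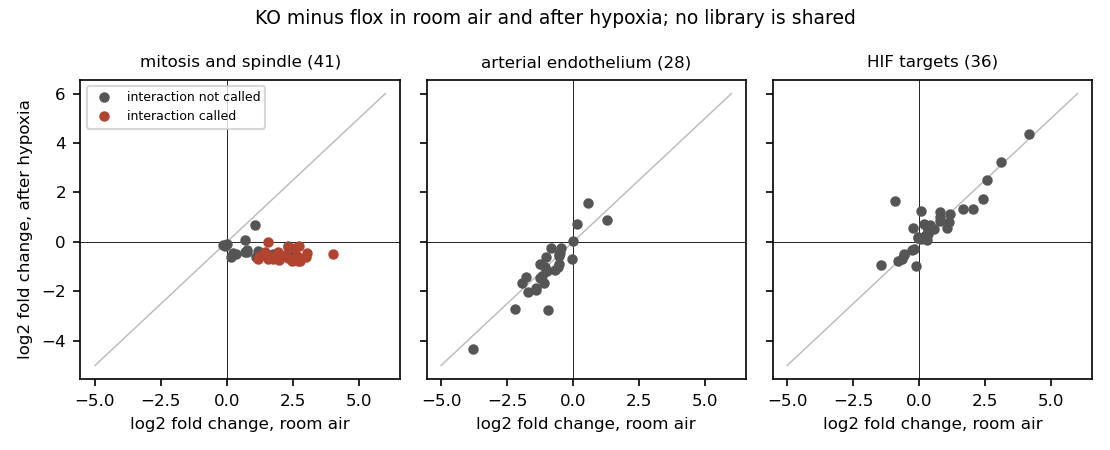
Log2 fold change (KO minus flox) in room air (x axis) against that after 7 days at 12% oxygen (y axis) for 41 mitosis, 28 arterial and 36 HIF target genes, with genes whose interaction was called in red. Mitosis genes lie mostly to the right of 0 and at or below 0 on the y axis (medians 1.74 and -0.49), whereas arterial genes lie near the diagonal.

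Genes of actin, myosin and their regulators rose more often than they fell. Of 42 genes 14 rose and 3 fell, 12 and 3 also with the block. Counts were 15 rises and 7 falls without both neuron-marker libraries and 14 and 7 without flox 4. The GTPase Rhoc stood at 153, 139, 156 and 138 CPM in the flox libraries and 309, 314, 355, 318 and 359.5 CPM in the KO libraries, with KO above flox throughout (log2 fold change 1.18 ± 0.09, adjusted p = 1.49e-07). Actn1, the crosslinker alpha-actinin, rose from 156 ± 3.86 to 295 ± 12.9 CPM (log2 fold change 0.92 ± 0.06, adjusted p = 1.22e-07). Diaph1, a formin that elongates actin filaments, rose from 120.3 ± 7.71 to 183 ± 5.89 CPM (log2 fold change 0.60 ± 0.07, adjusted p = 1.48e-05). The falls included Mylk, the kinase that activates smooth muscle myosin, from 161 ± 42.3 to 41.8 ± 3.51 CPM (log2 fold change -1.95 ± 0.19, adjusted p = 3.47e-06) and Myl9, its substrate, from 114 ± 30.7 to 35.4 ± 4.05 CPM (log2 fold change -1.69 ± 0.21, adjusted p = 3.57e-05). YAP and TAZ pathway genes gave 8 rises and 6 falls of 28 tested (29 listed), with 2 to 5 rises when any single library other than KO 4 was left out, 4 rises and 1 fall with the block, and 6 and 7 without both neuron-marker libraries. Ajuba, an adaptor at junctions, rose from 17.1 ± 4.56 to 44.9 ± 5.2 CPM (log2 fold change 1.39 ± 0.17, adjusted p = 2.94e-05). The YAP targets Ccn1 and Ccn2 were at 874 ± 893 CPM in flox and 1604 ± 1111 CPM in KO (adjusted p = 0.535) and 88.7 ± 43.6 CPM in flox and 94.4 ± 27.5 CPM in KO (adjusted p = 0.896).

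Genes induced within minutes of a stimulus varied widely within groups. None of 25 immediate early genes was called. Counts were 2 rises and 0 falls without flox 1. Fos was at 4749, 1326, 292 and 752 CPM in the flox libraries and 5552, 5734, 570.4, 5442 and 762 CPM in the KO libraries. Klf2 and Klf4, which are also induced quickly, were at 1254, 674, 445 and 566 CPM in the flox libraries and 1895, 1707, 711, 1706 and 809.5 CPM in the KO libraries for Klf2 (adjusted p = 0.0922) and 2647, 1483, 571 and 741 CPM in the flox libraries and 3579, 3613, 564, 3592 and 1006 CPM in the KO libraries for Klf4 (adjusted p = 0.397). For both the libraries with high Fos were the high ones in KO, and the groups overlapped. Klf2 was called under 3 of the 23 alternative fits and Klf4 under none. Of 19 genes of the KLF and ADAMTS programme 4 rose (21.1%, against 9.54% of all genes tested) and none fell, with a median log2 fold change of 0.28. With the block 3 of these rises were called too, and without both neuron-marker libraries the list gave 2 rises and 1 fall. Of 22 heat shock chaperones 1 rose, which was Serpinh1, and Hspa1a was at 3995 ± 3709 CPM in flox and 3340 ± 539.5 CPM in KO (adjusted p = 0.793). Of 24 tested (25 listed) feedback inhibitors of ERK signalling 1 rose and 1 fell. Counts were 4 rises and 1 fall without both neuron-marker libraries and 3 and 2 without flox 4. The median log2 fold change was 0.24, and -0.09 with the immediate early level as a covariate. Dusp6 was at 139.6 ± 81.9 CPM in flox and 329 ± 198 CPM in KO (adjusted p = 0.133).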

How the data were processed

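RNA from isolated brain endothelial cells was sequenced as stranded mRNA libraries. Per the submitters' processing notes, reads were aligned with HISAT2 to GRCm39 and edgeR was used; their versions, the counting tool and its strand setting are not given in the sources used here. The authors deposited raw read counts per Ensembl gene and, in a second table, RPKM values. Symbols came from the GRCm38 annotation and matched 91.3% of identifiers. Since the counting tool and its strand setting are not known, antisense and overlapping genes may share reads. The deposited counts of all 18 libraries were fitted in 1 model of 4 groups with edgeR 4.0.16 under R 4.3.3. The fit used filterByExpr, TMM and a robust quasi-likelihood F test, and genes were called at a Benjamini-Hochberg adjusted p under 0.05. It was tried on simulated counts with known fold changes, drawn as independent libraries with the same spread setting for all genes. That trial does not show how the fit handles the differences between libraries described above. The SE follows from the fold change on the log2 scale and the F statistic. RPKM compared levels between genes and entered limma 3.58.1 with 0.1 added; DESeq2 1.42.0 was another alternative.

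The 9 room-air libraries held 19701159 to 31193333 counts, which limits precision for genes under about 1 CPM. Same-numbered flox and KO libraries deviated together (correlation across genes 0.579, 0.294 and 0.847 for numbers 1, 2 and 4), so the numbers were treated as pairs in a blocked alternative. Some libraries with different numbers did so as much or more, such as flox 3 with KO 6 (0.707), flox 1 with KO 2 (0.55) and flox 2 with KO 6 (0.392), and the labels do not say what a number marks. The members and the 61 gene lists, with 1714 entries of which 1710 matched an identifier, were chosen with earlier results of these data known. Genes named are key list members, from each list up to 4 called members of lowest adjusted p, and the 10 most extreme by fold, by CPM difference and by p in each direction, with up to 5 for the interaction; Fos, Syt1 and Ddx3y describe libraries. Promoters are from RefSeq, and an entry was used for 11699 of the tested genes. Entries of a single chromosome and those of another sequence length were left out before the counts. Lists with no call are neuron, astrocyte, oligodendrocyte, neutrophil, erythroid and choroid plexus markers, sex-linked transcripts, mitochondrial respiratory chain and immediate early genes.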

Additional observations from a re-analysis of the deposited data

Results flagged for a closer look

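In groups of 4 or 5 libraries, 1 library stood far from the others in the mean log2 CPM of several gene lists. About 1 in 20 groups is expected to show this by chance. Flox 4 lay apart from the other flox libraries in 7 lists: at 7.53 for neuron markers, 6.52 for astrocyte markers, 7.14 for glycolysis, 11.12 for mitochondrial respiratory chain genes, 6.03 for the CCM complex and its partners, 5.53 for ABC transporters and 3.39 for complement. KO 4 lay apart from the other KO libraries at 6.67 for neuron markers, 5.79 for astrocyte markers, 7.38 for glycolysis and 6.74 for genes of caveolae and transcytosis. KO 6 lay apart at 6.02 for the angiopoietin and Tie genes, 5.40 for leukocyte adhesion genes and 3.84 for oligodendrocyte markers. Neuron and astrocyte markers thus set flox 4 and KO 4 apart within both genotypes, and the same libraries were high in glycolysis.

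The genotype difference itself differed between oxygen levels for 77 genes, by the interaction term of edgeR's quasi-likelihood fit. Among the genes chosen by the naming rule, 15 were of this kind, and for each the difference between KO and flox was smaller or of opposite sign after hypoxia. Among the mitotic genes the interaction, on the log2 scale, put Pimreg at -4.40, Mki67 at -3.56, Hmmr at -3.47, Top2a at -3.21, Ube2c at -2.93, Espl1 at -2.85, Cdk1 at -2.81, Ccnb2 at -2.52 and Cdc20 at -1.56. Uhrf1, which acts at replication, was at -1.31. The other 5 do not belong to the cell cycle: Lyve1 at -2.09, the laminin chain Lama1 at -2.06, the phosphatase gene Ppm1j at -1.31, coagulation factor F5 at -1.23 and Klhl4 at -0.92. In room air all 15 were higher in KO.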

How the results depend on the processing

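The fall of Pdcd10 kept its direction and stayed past the threshold under all 23 alternatives. Of 2905 genes called (1673 higher, 1232 lower), the fit with the replicate block within oxygen, which uses the pairing by number, gave 1574 (972 higher, 602 lower), and the block on the 3 room-air pairs alone gave 701 (358 higher, 343 lower); both rest the difference on fewer libraries. The 9 room-air libraries fitted alone gave 795 lower. Without both neuron-marker libraries 1965 genes were lower, and leaving out 1 library at a time gave 902 to 1882 lower, the highest without KO 4. The cause of these shifts was not tested. Of all calls 57.6% were higher, against 52.4% with RLE scaling, 47.8% with limma on RPKM and 48.0% without both neuron-marker libraries, and no alternative moved the median of all genes by more than 0.05. The microglial gene Csf1r, not called (log2 fold change -0.29), ranged from -0.96 to 2.69 when 1 library was left out, the latter without flox replicate 4 and past the threshold (adjusted p = 0.0419 in edgeR's quasi-likelihood test). Of 430 named genes besides Pdcd10, 249 were called, 115 of them under every alternative, and 51 of the 181 not called were called under at least 1. DESeq2 kept 97.8% of calls, RLE scaling 95.6%, no filter 71.2%, the block within oxygen 48.3% and the block on pairs alone 21.2%. Without the 3 libraries with both Xist and Ddx3y 67.8% of calls were kept. Among the named genes 44 lost their call there, including Nfkb2, Serpinh1 and Tnfrsf19. Of genes below a mean log2 CPM of 0, 9.39% were called, against 31.8% above 8; the part of depth in this was not tested.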
